A study of Mus musculus with 12 samples.

Results

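The 9 genes described here belong to the coagulation and plasminogen system: F3, F7, F10, F13a1, Thbd, Procr, Plau, Plaur and Serpinb2. They were taken by symbol from the 43278 genes of the count table, of which 25005 were above 0 in at least 1 library. RNA was sequenced from 12 libraries of thioglycolate-elicited peritoneal macrophages (PMφs), 3 each of control cells, cells loaded with oxidized low-density lipoprotein (oxLDL), cells given LPS, and oxLDL-loaded cells given LPS (oxLDL+LPS). All cells came from wild-type C57BL/6J mice, 8 to 12 wk of age, that had received 1 ml of 4% aged thioglycolate in the peritoneum, and were lavaged after 4 d and kept in culture for 18 h before use. The dose of human medium oxLDL was 100 µg/ml for 24 h and that of ultrapure LPS was 10 ng/ml, and how long LPS was present before these libraries were made is not given in the sources used here. By the paper's methods, cells of up to 10 mice of both sexes were pooled per experiment and divided among the 4 groups. A library would then be a pool of animals rather than 1 animal, and the sex transcripts given below bear on this. PMφs of this kind are recruited, monocyte-derived cells. The genes were chosen by function with earlier results of these data known, so the adjusted p-values below describe them and are no independent support for their direction.

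Coagulation starts when tissue factor, a membrane protein encoded by F3, meets factor VII, and the complex activates factor X, which with its cofactor turns prothrombin into the thrombin that cleaves fibrinogen. Factor XIIIa cross-links the fibrin. Thrombomodulin (Thbd) and the endothelial protein C receptor (Procr) turn thrombin toward activation of protein C, an anticoagulant. Urokinase (Plau), held at the cell surface by its receptor (Plaur), converts plasminogen into plasmin, which dissolves fibrin, and the inhibitor encoded by Serpinb2 blocks urokinase. Macrophages are a known source of tissue factor, factor X, factor XIIIa and urokinase in inflamed tissue.

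The libraries held 16725738 to 26174560 implied reads, and 1 normalized count stood for 0.708 to 1.31 reads. A normalized count is a read count that the authors divided by 1 factor per library and rounded. The sum of 7 macrophage markers ranged from 230743 to 324472, and Lyz2 made up most of it. Fcgr1 was at 688, 496 and 919 in control and at 8081, 2264 and 5890 in LPS libraries. Adgre1 and Mertk were higher in LPS libraries too, and the ranges of Lyz2, Cd68, Csf1r and Itgam overlapped. Hepatocyte markers were at 0 or 1, and 4 of 7 platelet markers stayed under 10 in every library. The summed platelet markers were at 67 to 119 in libraries without LPS and at 12 to 25 with LPS. Treml1 went from 41 to 90 down to 0 to 6 and Gp1ba from 9 to 20 down to 0 to 6, and these carried the fall. Itga2b stayed at 6 to 17 without LPS and 7 to 15 with LPS, and Gp9 was at 0 or 1 throughout. The sum of 5 endothelial markers was at 322, 437 and 412 in control and at 548, 487 and 742 in LPS libraries. Kdr made up most of that sum, and 2 of the 5 stayed under 10 in every library. The sum of 6 fibroblast markers ran in the same order by replicate number in all 4 groups, from 18169 to 31312 in number 1 libraries down to 5311 to 6131 in number 3 libraries. The sum of 7 mesothelial markers ran in that order in all 4 groups too. It was at 763, 476 and 216 in control and at 625, 225 and 136 in LPS libraries 1 to 3. Libraries of number 1 stood apart by sex transcripts: Xist, transcribed in female cells, was at 1 and 2 in the control and oxLDL libraries but at 6331 and 3812 in the LPS and oxLDL+LPS libraries, and the Y-linked Ddx3y was at 1156 and 1132 against 459 and 439. The cells of number 1 with and without LPS therefore did not have the same sex makeup, and the log2 change with LPS of each of the 9 genes is also given without that number. Sex makeup differed between the numbers as well. Number 2 libraries had Xist at 5933 to 7751 and Ddx3y at 0 to 2, as in female cells alone. Number 3 libraries held both, with Xist at 3538 to 4217 and Ddx3y at 707 to 775. In such bulk libraries fewer cells that express a gene and less RNA per cell cannot be told apart. What part sex makeup, fibroblasts, mesothelial cells, platelets or endothelial cells have in the results was not tested.

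**Figure D1:**
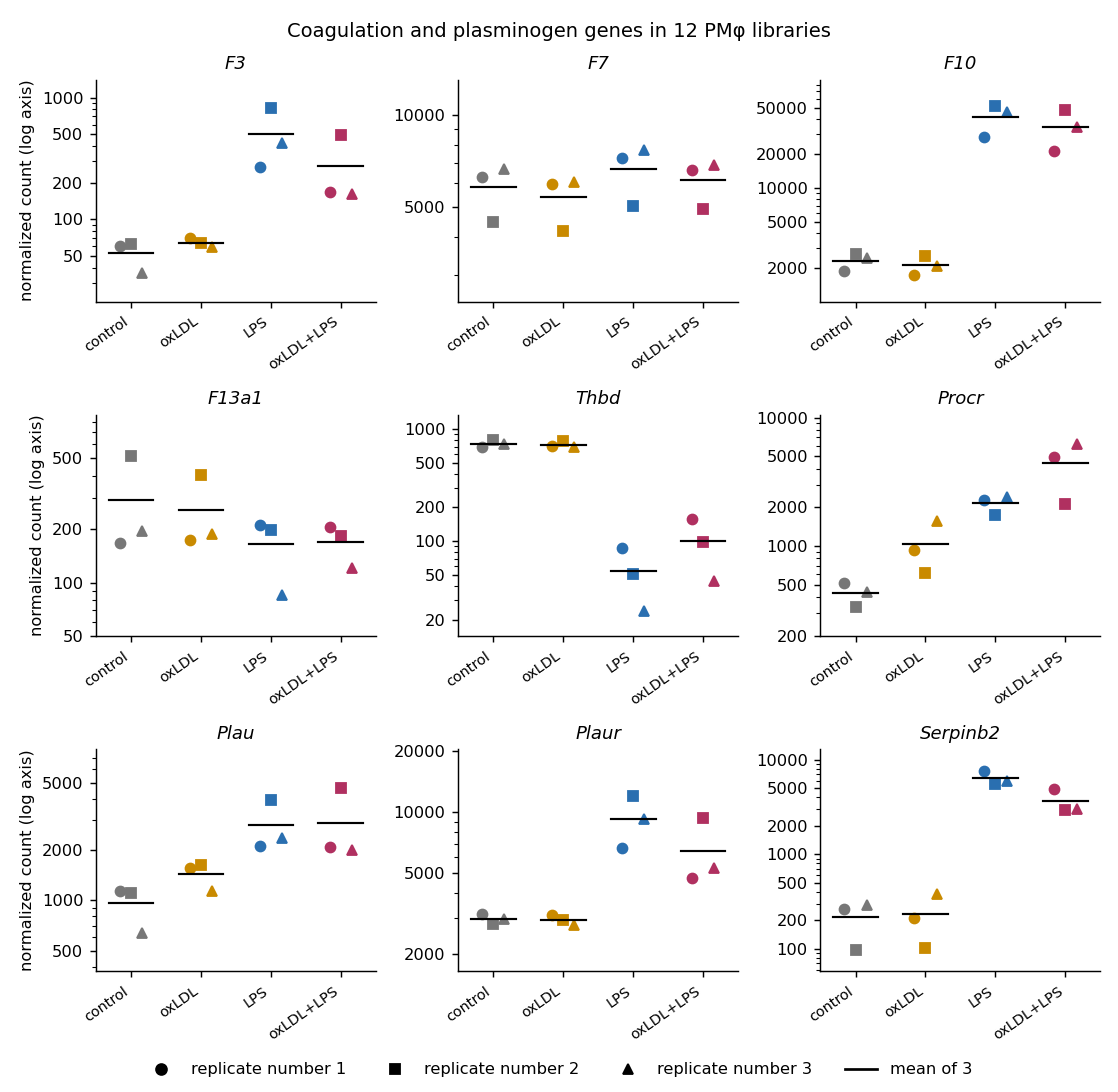
Normalized count (log axis) of the 9 genes in each of 12 PMφ libraries by group, with a point shape per replicate number and a line at the mean of 3. F10 lies at 1724 to 2639 without LPS and at 21308 to 52192 with LPS, while Thbd lies at 687 to 794 without and at 24 to 159 with LPS.

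LPS raised 6 of the 9 genes in cells without oxLDL and lowered 1. F10, Serpinb2, F3, Procr, Plaur and Plau rose, Thbd fell, and F7 and F13a1 did not pass the test (limma with Benjamini-Hochberg adjustment over 13023 genes, adjusted p under 0.1). Over all genes 61.7% were called in this comparison, so a call was the more usual outcome and nothing particular to these genes follows from their number. With the replicate number as a block, 9 of 9 were called against 68.7% of all genes. The median log2 change of the 9 genes was 1.6, and that of all genes tested was -0.000967. After rescaling the libraries to equal totals these medians were 1.12 and -0.48, and 8 of the 9 genes (6 higher, and Thbd and F13a1 lower) and 72.4% of all genes (2174 higher, 7225 lower) were called. Ranges of LPS and control libraries were apart for 7 of the 9 genes and for 63.2% of all genes.

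Among the procoagulant factors, F3 (mouse GRCm38 chr3:121723537-121735048, plus strand) was at 61, 63 and 36 normalized counts in control libraries 1 to 3 and at 267, 824 and 424 in LPS libraries. Every LPS library was above every control library, and the library of number 2 was the highest. The increase was 8.62-fold (log2 fold change 3.11, SE 0.41, adjusted p = 0.000444), and 3.61 on the log2 scale without number 1.

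F7 and F10 are neighbours on chromosome 8, with 1499 bases between the end of F7 and the start of F10 (F7 at chr8:13026034-13035809 and F10 at chr8:13037308-13056676, both on the plus strand). F10 was at 1882, 2639 and 2427 in control and at 27875, 52192 and 45973 in LPS libraries. Its ratios within a replicate number were 14.8, 19.8 and 18.9, and the fitted increase was 17.7-fold (log2 4.15, SE 0.24, adjusted p = 6.4e-06; 4.27 without number 1). F7 was at 6281, 4475 and 6695 in control and at 7237, 5068 and 7688 in LPS libraries, so the ranges overlapped. Within each number the LPS library was higher by a similar ratio (1.15, 1.13 and 1.15). Its log2 change of 0.19 (SE 0.20) had an adjusted p of 0.455, and 0.0684 with the replicate block (0.19 without number 1, adjusted p = 0.614). The LPS libraries hold larger sums of normalized counts (22071853 to 26384551 against 17152972 to 17709731 without LPS), and after rescaling to equal totals the change of F7 was -0.29. F13a1, the factor XIIIa subunit (chr13:36867178-37050244, minus strand, with 2 antisense genes inside it), was at 168, 518 and 195 in control and at 212, 199 and 85 in LPS libraries. It was lower with LPS in numbers 2 and 3 and higher in number 1, a log2 difference of -0.74 (SE 0.49, adjusted p = 0.238, and 0.0762 with the block). Without number 1 it was -1.28 (adjusted p = 0.14).

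In the protein C pathway the receptors moved in opposite directions. Thbd, a gene on the minus strand of chromosome 2 (chr2:148404466-148408188), was at 692, 794 and 734 in control and at 87, 51 and 24 in LPS libraries. The control libraries lay close together, and the LPS libraries spread over a wider ratio, with number 3 the lowest. Thbd fell by 3.93 on the log2 scale (SE 0.40, adjusted p = 0.000117), to 0.0656 of its control level, and its log2 change was -4.41 without number 1. The summed platelet markers were also lower with LPS (99, 77 and 104 in control and 22, 20 and 16 in LPS libraries), through Treml1 and Gp1ba and not Itga2b. The summed endothelial markers given above were higher with LPS. The part of platelets or endothelial cells was not tested. Procr (chr2:155751117-155755471, plus strand) was at 514, 335 and 439 in control and at 2282, 1725 and 2410 in LPS libraries. Its increase was 5.0-fold (log2 2.32, SE 0.19, adjusted p = 3.37e-05; 2.41 without number 1), with ratios of 4.44, 5.15 and 5.49 by number.

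Of the plasminogen activation genes, Plau (chr14:20836660-20843385, plus strand) was at 1137, 1101 and 642 in control and at 2112, 3955 and 2349 in LPS libraries. It rose 2.90-fold (log2 1.54, SE 0.29, adjusted p = 0.00291; 1.86 without number 1). Its receptor Plaur (chr7:24462484-24475968, plus strand) was at 3145, 2827 and 2972 in control and at 6650, 11987 and 9300 in LPS libraries. For both genes LPS library 2 was the highest and LPS library 1 the lowest, the same order as for F3 and F10. Plaur rose 3.04-fold (log2 1.6, SE 0.20, adjusted p = 0.000317; 1.86 without number 1). The inhibitor gene Serpinb2 (chr1:107511423-107535478, plus strand) was at 262, 98 and 292 in control and at 7540, 5571 and 5941 in LPS libraries. It rose 32-fold (log2 5.0, SE 0.38, adjusted p = 2.61e-05; 5.08 without number 1), the largest change of the 9 genes. The span of Serpinb2 in GENCODE M21 overlaps that of Serpinb10 on the same strand. Whether their exons share bases, and what part this has in the counts, was not tested.

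In oxLDL-loaded cells LPS moved the same 7 genes in the same directions. Calls were made for 7 of the 9 genes (6 higher, 1 lower) against 54.5% of all 12900 genes tested, and for 8 of 9 against 63.4% with the block. Ranges were apart for 7 of 9 genes and for 57.6% of all genes. This comparison shares no library with LPS against control, but the comparisons are not independent. By the paper's methods the cells of a pool were divided among the 4 groups. Same-numbered libraries deviated together from their group means, with correlations of 0.61, 0.60 and 0.66 for oxLDL with control. For oxLDL+LPS with LPS they were 0.60, 0.57 and 0.57.

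F3 went from 70, 64 and 59 in oxLDL libraries to 167, 492 and 162 in oxLDL+LPS libraries, an increase of 3.65-fold (log2 1.87, SE 0.41, adjusted p = 0.00825). F10 went from 1724, 2554 and 2061 to 21308, 48070 and 33881, an increase of 15.6-fold (log2 3.97, SE 0.29, adjusted p = 4.03e-05). Number 2 again gave the highest LPS-treated library for both genes. Thbd went from 707, 786 and 687 to 159, 98 and 44, and fell by 3.02 on the log2 scale (SE 0.41, adjusted p = 0.000835). Procr went from 931, 618 and 1571 to 4929, 2135 and 6196, an increase of 4.16-fold (log2 2.06, SE 0.46, adjusted p = 0.00827). In these Procr values number 2 was the lowest both with and without LPS.

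Plau went from 1547, 1622 and 1138 to 2076, 4623 and 1983, an increase of 1.88-fold (log2 0.91, SE 0.33, adjusted p = 0.0528). Its call was lost without oxLDL replicate 3 (log2 0.75, adjusted p = 0.151), without number 1 (1.16, adjusted p = 0.1) and after rescaling to equal totals (0.52, adjusted p = 0.194). Plaur went from 3106, 2947 and 2801 to 4744, 9388 and 5292, an increase of 2.09-fold (log2 1.07, SE 0.24, adjusted p = 0.00862). Serpinb2 went from 213, 103 and 382 to 4943, 2922 and 3041, an increase of 17.3-fold (log2 4.11, SE 0.45, adjusted p = 0.000282). F7 was at 5950, 4186 and 6071 in oxLDL libraries and at 6633, 4940 and 6871 in oxLDL+LPS libraries (log2 0.19, SE 0.19, adjusted p = 0.436, and 0.0521 with the block). F13a1 was at 175, 403 and 188 and at 205, 183 and 121 (log2 -0.51, SE 0.35, adjusted p = 0.269). Without number 1 the log2 changes of the genes called were 2.18 for F3, 4.14 for F10, -3.46 for Thbd, 1.88 for Procr, 1.29 for Plaur and 3.90 for Serpinb2. Those of F7 and F13a1 were 0.21 and -0.88 (adjusted p = 0.559 and 0.173).

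**Figure D2:**
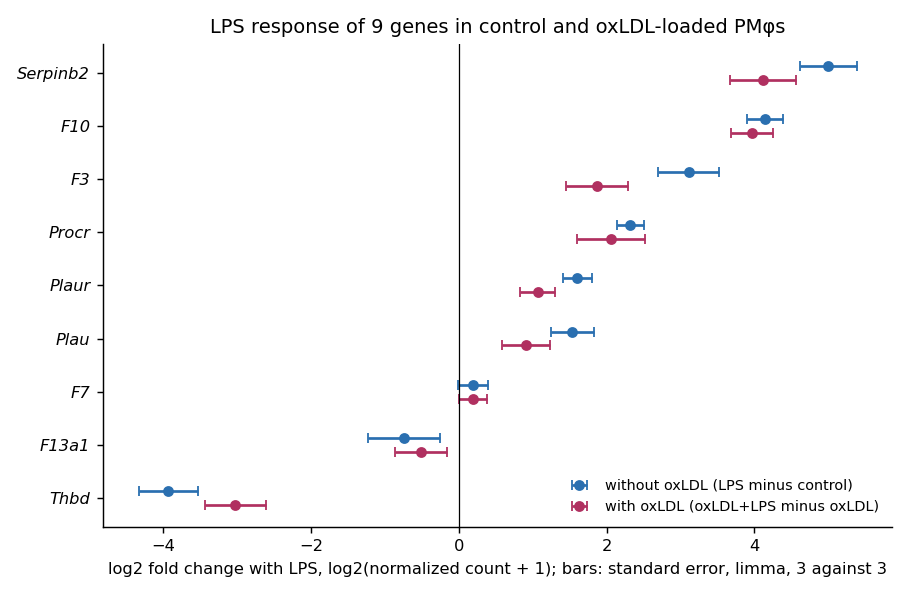
log2 fold change with LPS of the 9 genes on the log2(normalized count + 1) scale, in cells without oxLDL (LPS minus control) and with oxLDL (oxLDL+LPS minus oxLDL). Points are limma estimates from 3 against 3 libraries and bars are standard errors, and the values run from -3.93 for Thbd to 5.0 for Serpinb2 without oxLDL and from -3.02 to 4.11 with oxLDL.

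Levels of different genes can be set side by side only per length, so normalized counts were divided by the kilobases of exon of each gene. In control cells F7 had the highest level of the 9 genes (3129 ± 635 per kb, SD, n = 3), above Plaur (1139 ± 60.8) and F10 (848 ± 143). Plau (406 ± 117), Procr (211 ± 44.3) and Thbd (199 ± 13.8) followed, and the levels of Procr and Thbd differed by less than their spread. Serpinb2 (92.5 ± 44.5), F13a1 (43.6 ± 28.9) and F3 (21.1 ± 5.95) were the lowest. In LPS-treated cells F10 was the highest at 15384 ± 4626 per kb. F7 (3585 ± 753), Plaur (3558 ± 1020) and Serpinb2 (2704 ± 445) came next with overlapping spreads, and so did Plau (1185 ± 424) and Procr (1053 ± 179). F3 reached 199.8 ± 114 per kb, and Thbd was the lowest at 14.5 ± 8.49, beside F13a1 at 24.5 ± 10.4. With oxLDL as well, Procr (2176 ± 1023) lay beside Plaur (2474 ± 970).

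**Figure D3:**
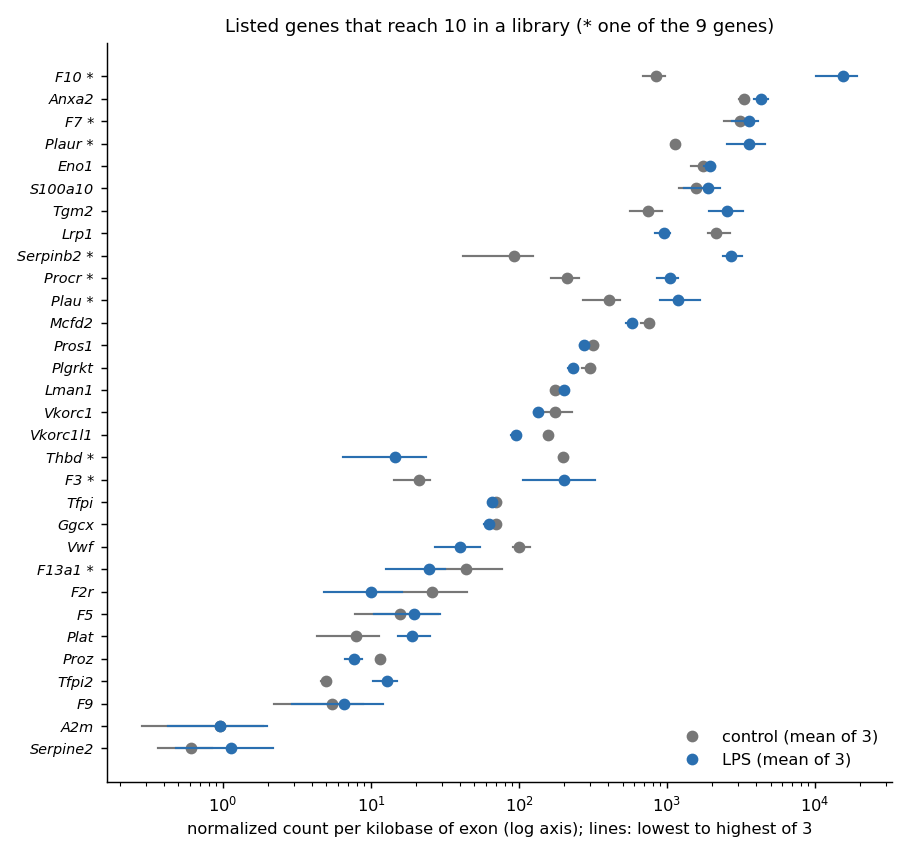
Normalized count per kilobase of exon (log axis) of the 31 listed coagulation and plasminogen genes that reach 10 in a library, in control and LPS libraries. Points are means of 3, lines run from the lowest to the highest library, and F10 moves from 848 to 15384 while Thbd moves from 199 to 14.5.

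The 250 bases upstream of the annotated start are shown for the 4 genes that rose with LPS and hold an AP-1 motif there, and for F10, which rose and holds none. RefSeq gave a promoter for 7 of the 9 genes (GRCm38.p6), all but Thbd and Plau. Each sequence is written 5′ to 3′ on the plus strand, which is the coding strand of these genes, with matches to TGANTCA (AP-1) and TGACNNNGC (the core of the antioxidant response element) in capitals. The motifs were picked after the values were seen, were searched on both strands, and overlap in Procr.
F3 (chr3:121723287-121723536): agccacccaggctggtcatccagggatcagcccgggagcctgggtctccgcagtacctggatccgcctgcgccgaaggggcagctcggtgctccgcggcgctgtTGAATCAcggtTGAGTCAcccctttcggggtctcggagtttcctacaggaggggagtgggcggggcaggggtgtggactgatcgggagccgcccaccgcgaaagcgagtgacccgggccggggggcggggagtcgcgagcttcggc
Serpinb2 (chr1:107511173-107511422): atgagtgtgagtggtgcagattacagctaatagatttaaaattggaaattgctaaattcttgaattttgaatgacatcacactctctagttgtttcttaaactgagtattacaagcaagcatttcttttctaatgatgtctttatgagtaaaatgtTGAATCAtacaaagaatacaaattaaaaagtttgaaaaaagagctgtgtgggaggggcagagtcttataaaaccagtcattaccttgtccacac
Plaur (chr7:24462233-24462482): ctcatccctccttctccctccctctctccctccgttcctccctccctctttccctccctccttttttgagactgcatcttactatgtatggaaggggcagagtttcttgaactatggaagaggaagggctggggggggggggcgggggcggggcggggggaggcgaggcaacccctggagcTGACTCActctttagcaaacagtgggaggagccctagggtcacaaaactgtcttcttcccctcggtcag
Procr (chr2:155750967-155751216): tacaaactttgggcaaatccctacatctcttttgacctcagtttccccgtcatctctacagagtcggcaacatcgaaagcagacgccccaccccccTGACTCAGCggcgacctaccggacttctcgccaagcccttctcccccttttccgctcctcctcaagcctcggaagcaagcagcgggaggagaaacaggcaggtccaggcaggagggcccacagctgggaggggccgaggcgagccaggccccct
F10 (chr8:13037058-13037307): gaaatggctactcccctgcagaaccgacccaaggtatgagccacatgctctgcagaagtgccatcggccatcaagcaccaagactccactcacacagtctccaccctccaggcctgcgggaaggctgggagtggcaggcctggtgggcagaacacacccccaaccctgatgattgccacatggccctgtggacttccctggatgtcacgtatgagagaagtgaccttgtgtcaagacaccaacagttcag

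AP-1 matches lay 146 and 135 bases before the start in F3, 94 in Serpinb2, 69 in Plaur and 154 in Procr. Thus 4 of the 7 genes held the motif, against 6.75% of 32851 mouse promoters of the same length. Serpinb2 and F13a1 each had a further annotated start that was searched too. The share over all counts single promoters, so the units differ. The antioxidant core was found in Procr alone of the 7 and in 10.2% of all promoters. The CRE motif TGACGTCA (1.55% of promoters) and the NF-κB consensus (3.9%) matched in none of the 7. Only full matches to these set patterns were counted, and sites that depart from them were not searched for. The lack of a match therefore does not show that F3 or another of these promoters has no NF-κB site. A match is a description of these letters and not of a bound site, and what part any factor has in the changes was not tested.

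Whether oxLDL alone moved the genes was asked by comparing oxLDL with control libraries. No gene of 12751 was called by limma without the block (0.0%), 381 had an unadjusted p under 0.05, and 2 of these were among the 9. With the replicate block 4.71% of all genes were called and 2 of the 9, Procr and Plau, both higher. Their ranges were apart between the groups, which was so for 2 of the 9 genes and for 7.7% of all genes.

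Procr rose from 514, 335 and 439 in control to 931, 618 and 1571 in oxLDL libraries, ratios of 1.81, 1.84 and 3.58 by number. The log2 difference was 1.19, with an adjusted p of 1.0 without the block and 0.00195 with it (SE 0.15). Plau, at 1137, 1101 and 642 in control and 1547, 1622 and 1138 in oxLDL libraries, had ratios of 1.36, 1.47 and 1.77. Its log2 difference was 0.61, with an adjusted p of 1.0 without the block and 0.00106 with it (SE 0.066). The other 7 genes had log2 differences between -0.14 (F10) and 0.31 (F3), and their adjusted p with the block ran from 0.185 for F10 to 0.918 for Plaur. Thbd and Plaur were nearly level, with log2 differences of -0.03 (SE 0.085) and -0.01 (SE 0.070).

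In LPS-treated cells oxLDL went with lower F3, Plaur and Serpinb2 and with higher Thbd and Procr in all 3 replicate numbers. Without the block limma called no gene of 12786 (0.0%), with 890 at an unadjusted p under 0.05. With the block 13.2% of all genes were called, and 5 of the 9. Ranges of the groups were apart for 1 of the 9 genes, Serpinb2, and for 12.6% of all genes.

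Serpinb2 was at 7540, 5571 and 5941 in LPS and at 4943, 2922 and 3041 in oxLDL+LPS libraries, ratios of 0.656, 0.525 and 0.512. Its log2 difference was -0.84 (adjusted p = 0.698, and 0.00347 with the block, SE 0.089). F3 had ratios of 0.625, 0.597 and 0.382 by number, a log2 difference of -0.93 (adjusted p = 0.752, and 0.00857 with the block). Plaur had ratios of 0.713, 0.783 and 0.569, a difference of -0.55 (adjusted p = 0.75, and 0.0152 with the block). Number 3 thus gave the lowest ratio for these 3 genes.

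Thbd, the gene that LPS lowered, had ratios of 1.83, 1.92 and 1.83, which were close across the numbers although its levels ranged from 24 to 87 in LPS and from 44 to 159 in oxLDL+LPS libraries. The log2 difference was 0.88 (adjusted p = 0.779, and 0.0172 with the block). Procr had ratios of 2.16, 1.24 and 2.57, a log2 difference of 0.93 (adjusted p = 0.705, and 0.0135 with the block), and without oxLDL+LPS replicate 2, the lowest of its group, it was called without the block as well (1.38, adjusted p = 0.0626). F10 was lower in all 3 numbers (ratios of 0.764, 0.921 and 0.737) without a call in either fit (log2 -0.32, adjusted p = 0.884, and 0.164 with the block). Plau, higher with oxLDL alone, had ratios of 0.983, 1.17 and 0.844 here, and a log2 difference of -0.01. F7 (log2 -0.11) and F13a1 (0.11) were not called with the block (adjusted p = 0.438 and 0.69). The number of these calls rested on single numbers: the block called 2 of the 9 genes without number 1, 6 without number 2 and 0 without number 3. Over all genes it called 71 of 12266, 2945 of 12334 and 0 of 12452 in these fits. The counts of the 9 thus moved with those of the whole table.

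**Figure D4:**
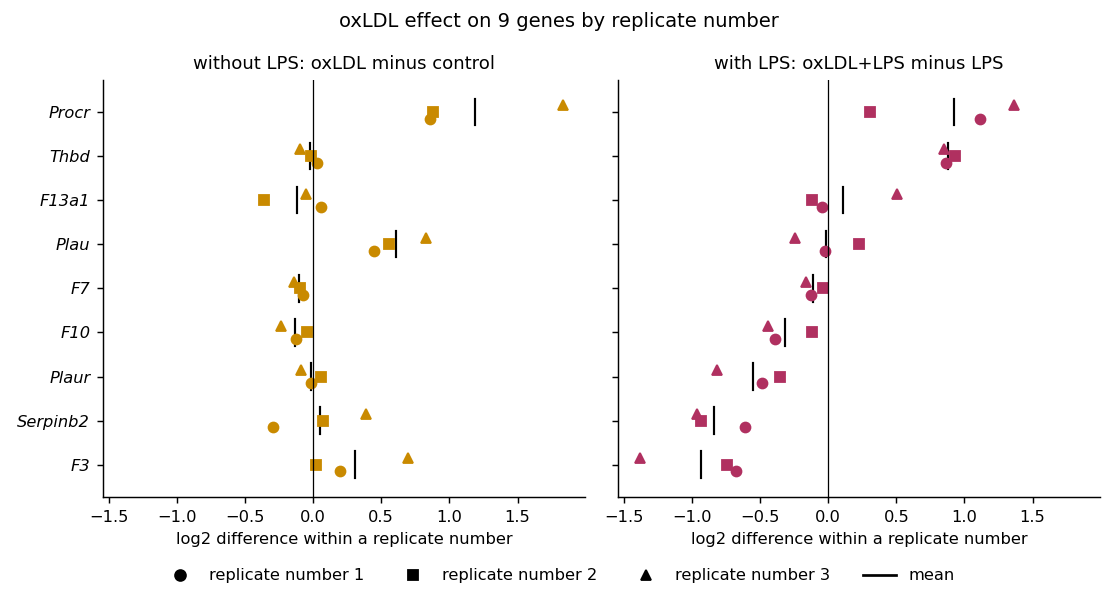
log2 difference between oxLDL-loaded and unloaded cells of the same replicate number for the 9 genes, without LPS on the left and with LPS on the right, with a point shape per number and a line at the mean of 3. With LPS the points of F3, Plaur and Serpinb2 are all below 0 and those of Thbd and Procr all above 0, and without LPS only Procr and Plau lie above 0 by more than 0.4 in every number.

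The difference between the LPS responses with and without oxLDL was tested as an interaction over all 12 libraries, (oxLDL+LPS minus oxLDL) minus (LPS minus control). Without a block no gene of 13482 was called (0.0%), with 418 at an unadjusted p under 0.05 and none of the 9 genes called. A single block for the replicate number called none either, with 967 at an unadjusted p under 0.05. With the number as a block within each LPS state, which takes up the difference between the number 1 pools, 1.09% of all genes and 5 of the 9 were called. The interaction was -1.24 for F3 (adjusted p = 0.067), -0.89 for Serpinb2 (0.0559), -0.62 for Plau (0.0784), -0.54 for Plaur (0.082) and 0.91 for Thbd (0.0376), all on the log2 scale. In all 5 genes the LPS change was smaller in oxLDL-loaded cells. For Plau the level with LPS was alike in the pair of groups (2805 ± 1003 and 2894 ± 1498) and the level without LPS differed (960.0 ± 276 and 1436 ± 261). For the other 4 the oxLDL difference was called by the block with LPS present and was not called without LPS. F7 (-0.00), F10 (-0.18), F13a1 (0.23) and Procr (-0.26) were not called. Within this block 0 of the 9 genes were called when number 1 was left out, 5 without number 2 and 0 without number 3. Over all genes the calls in these fits were 0 of 13148, 763 of 13192 and 0 of 13214.

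The wider system was described from 45 other genes listed by role. Of these, 23 were under 10 in every library and 22 passed the filter over the 12 libraries. The former set held genes of the plasma cascade that the liver makes, such as prothrombin (F2), the fibrinogen chains (Fga, Fgb, Fgg), plasminogen (Plg), antithrombin (Serpinc1) and protein C (Proc).

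LPS called 11 of 20 other genes tested (5 higher, 6 lower), and 14 with the block, against 61.7% and 68.7% of all genes. With a filter of 10 in every library, 10 of 18 were called (4 higher, 6 lower), against 7191 of 11410 over all genes. In oxLDL-loaded cells LPS called 7 of 20, and 14 with the block, against 54.5% and 63.4% of all genes. Nothing particular to these genes follows from their number. The genes that rose in both were Tgm2, Anxa2 and Lman1. Those that fell in both were Vwf, Lrp1 and Vkorc1l1. Tgm2, a transglutaminase related to F13a1, rose from 3391, 4286 and 2575 to 8808, 14930 and 11599 (log2 1.78, SE 0.24, adjusted p = 0.000458). Lrp1, a receptor that clears complexes of urokinase with its inhibitor, fell by 1.17 on the log2 scale (SE 0.17, adjusted p = 0.000753) from 33890, 46827 and 33623 to 17089, 18547 and 14728. Vwf, which carries factor VIII and binds platelets, fell by 1.37 (SE 0.24, adjusted p = 0.00215) from 1451, 1894 and 1476 to 433, 879 and 612. Of the platelet markers given above, Treml1 and Gp1ba were lower with LPS as well and Itga2b was not. The summed endothelial markers were higher with LPS. The part of platelets or endothelial cells was not tested. Without number 1 the log2 changes were 1.99 for Tgm2, -1.26 for Lrp1 and -1.19 for Vwf. Then 9 of 18 other genes tested were called, against 6549 of all 12092 genes tested. Lman1 was no longer among them (adjusted p = 0.183), and Tfpi2 was under the filter on low values. In oxLDL-loaded cells 5 of 20 were then called, against 5412 of all 12113 genes tested. Lman1, Anxa2 and Vkorc1 were not among these (adjusted p = 0.156, 0.18 and 0.359), and Plgrkt was (adjusted p = 0.058).

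By role, the tissue factor pathway inhibitors differed from each other in level and change. Tfpi was at 341 to 411 in control and at 349 to 367 in LPS libraries (log2 -0.08, adjusted p = 0.575), and Tfpi2 at 8 to 9 and 18 to 26 (log2 1.26). Tfpi2 passed the filter only through its LPS libraries and could enter the test only as a gene that rose. Its call, counted above, is therefore no support for a rise. Factor V (F5) was at 58, 209 and 82 in control and 139, 216 and 78 in LPS libraries (adjusted p = 0.54). Protein S (Pros1), the cofactor of activated protein C, was at 1145, 1386 and 1340 and at 1063, 1193 and 1099 (log2 -0.20, adjusted p = 0.137, and 0.0727 with the block). Protein Z (Proz), a cofactor in the inhibition of factor X, was at 62, 67 and 62 and at 48, 37 and 42 (log2 -0.58, adjusted p = 0.0365). Among genes of the vitamin K cycle and of factor secretion, Vkorc1l1 (log2 -0.71, adjusted p = 0.00049) and Mcfd2 (-0.39, adjusted p = 0.0184) fell, Lman1 rose (0.20, adjusted p = 0.0864), Vkorc1 fell in oxLDL-loaded cells (-0.54, adjusted p = 0.0685), and the carboxylase Ggcx had a log2 difference of -0.17 (adjusted p = 0.275). Tissue plasminogen activator (Plat) rose (log2 1.31, adjusted p = 0.0175), at 27 to 71 in control and 95 to 156 in LPS libraries. Of the plasminogen receptors, Anxa2 rose (0.38, adjusted p = 0.0304), Plgrkt fell (-0.38, adjusted p = 0.0214), and S100a10 had a log2 difference of 0.24 (adjusted p = 0.426, and 0.0412 with the block). After rescaling to equal totals 2 of the other listed genes were called higher and 12 lower with LPS, against 2174 higher and 7225 lower over all genes.

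Between oxLDL+LPS and LPS the block called 3 of 21 other genes tested, near the 13.2% of all genes. It called 0 of the other genes without number 1 and 0 without number 3, against 71 of 12266 and 0 of 12452 over all genes. Vwf (-0.43, adjusted p = 0.0617 with the block) and Pros1 (-0.29, 0.0635) were lower and Mcfd2 (0.25, 0.071) was higher. Between oxLDL and control it called only Vwf (-0.38, adjusted p = 0.0113) of 19 tested, against 4.71% of all genes.

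The thrombin receptor F2r and Plat were highest in number 1 and lowest in number 3 among control and among oxLDL libraries. The summed fibroblast markers and the summed mesothelial markers had the same order. F2r was at 149, 75 and 35 in control and Plat at 71, 51 and 27. With LPS that order was kept by F2r (54, 30 and 16) and Plat (156, 105 and 95). Of the 9 genes, Plau had this order in control libraries, F3 and Plaur in oxLDL libraries, and Thbd and F13a1 in both groups given LPS, and the other 4 had it in none of the groups. The part of fibroblasts or mesothelial cells in these levels was not tested.

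**Figure D5:**
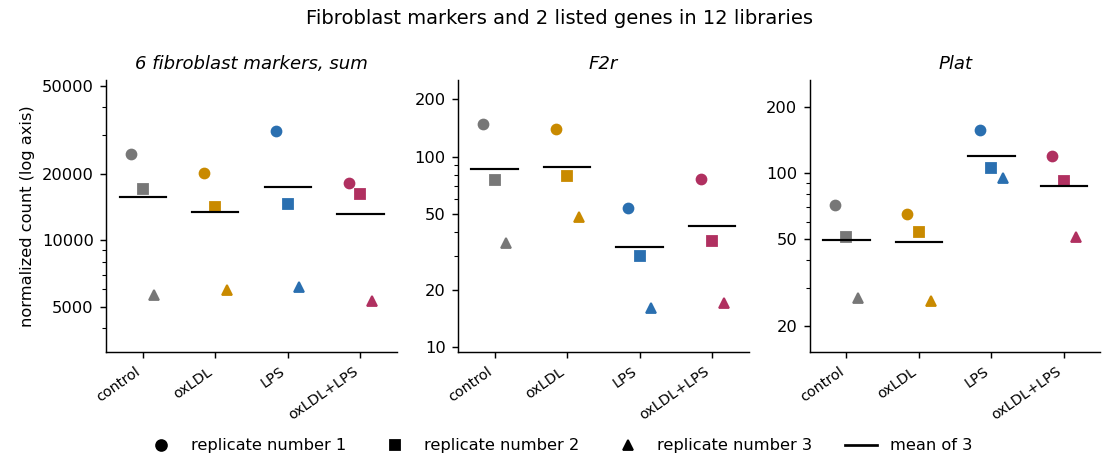
Summed normalized count of 6 fibroblast markers (Col1a1, Col1a2, Col3a1, Dcn, Lum, Pdgfra) and normalized counts of F2r and Plat (log axes) in the 12 libraries, with a point shape per replicate number and a line at the mean of 3. The marker sum is highest in number 1 and lowest in number 3 libraries of every group, and F2r is at 149 in control library 1 and at 16 in LPS library 3.

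Likeness of pattern was measured as Pearson's r of log2 values over the 12 libraries with 13473 other genes. The libraries share groups and pools, so r describes the shape only. Within the 9 genes the highest values were 0.98 for F3 with Plaur and -0.96 for F10 with Thbd, and F7 with F3 had 0.10. Procr was most like Abcc1 (r = 0.99), Clec4d (0.99) and Gsr (0.98). Abcc1, an exporter of glutathione conjugates, was at 1538, 1087 and 1359 in control, at 1944, 1395 and 3915 in oxLDL and at 14140, 5058 and 17674 in oxLDL+LPS libraries, with number 2 the lowest in each, as for Procr. F3 and Plaur shared Cd164 as the closest gene (0.99 in both), and Hbegf, a growth factor, was next for F3 (0.99). F10 was most like Rab32, Tlr2 and Tapbp (each 1.00), and Tlr2 rose from 419 to 583 in control to 10826 to 27016 in LPS libraries. Serpinb2 was most like Mdm2 (0.99), Ccl9 (0.99) and Eif2s1 (0.99), and Thbd like Kiz, 5031425F14Rik and Gtf2i (each 0.99). F13a1 was most like Egln3 (0.94), which was at 317, 925 and 278 in control libraries with the same high number 2. Plau was most like Psat1, Vars and Gpatch4 (each 0.98), and F7 like S100a10 (0.96), Fau (0.95) and Cd72 (0.94).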

How the data were processed

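Poly(A) RNA of PMφs was sequenced from directional libraries. Per the labels and the paper's methods, the authors trimmed reads with Trimmomatic (0.32), aligned them to GRCm38 (mm10) with STAR (2.5.1b), counted exonic reads per GENCODE M4 gene with featureCounts, and used DESeq2. The deposited signal, called normalized counts here, is a count table that was scaled, each library by its own factor, and rounded, as the spacing of its values shows. Whether counting used the strand is not given in the sources used here, and 25 gene symbols had been turned into dates and were not used.

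Groups were compared with limma (3.58.1, R 4.3.3; lmFit, eBayes with a trend) on log2(value + 1), so fold changes of low genes are understated. A gene was kept where 3 or more libraries of the fit reached 10, and a call was an adjusted p (Benjamini-Hochberg, over all genes tested) under 0.1. Each comparison was fitted on its own 6 libraries and the interaction on all 12. The fit was tested on simulated data. Exact permutation of 3 against 3 libraries cannot go below p = 0.1. The labels do not say that replicates came from separate animals, so p-values measure the spread between these libraries.

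Same-numbered libraries deviated together from their group means over 13482 genes. The correlations were 0.61, 0.60 and 0.66 for oxLDL with control, 0.60, 0.57 and 0.57 for oxLDL+LPS with LPS, 0.34, 0.40 and 0.54 for LPS with control, and 0.27, 0.47 and 0.57 for oxLDL+LPS with oxLDL, each above that with any other number. The numbers were therefore taken to pair libraries, and the value from a blocked fit (number as block) is given where it changes a call. In the LPS comparisons the pairing of number 1 is doubtful, since Xist was at 1 in its control and 6331 in its LPS library. Blocked values there still treat number 1 as a pair.

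The 9 genes, the 9 role lists (54 genes, written by function), the cell type markers and the named genes were chosen with earlier results of these data known. All 9 genes are named, and other listed genes called in a comparison may be named, with the highest gene of each role list, and the 3 genes most like each of the 9 by Pearson's r. Positions and exon lengths came from GENCODE M21 (GRCm38). Alternatives were the block, filters, a pseudocount of 8, other scalings, a joint fit and leaving out libraries. Some genes of the system are not reported here.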

Additional observations from a re-analysis of the deposited data

Results flagged for a closer look

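For 5 of the 9 genes the LPS response differed between oxLDL-loaded and unloaded cells by a test of the interaction with the replicate number as a block within each LPS state (limma, adjusted over 13482 genes). On the log2 scale the difference, oxLDL-loaded minus unloaded, was -1.24 for F3 (adjusted p = 0.067), 0.91 for Thbd (adjusted p = 0.0376), -0.62 for Plau (adjusted p = 0.0784), -0.54 for Plaur (adjusted p = 0.082) and -0.89 for Serpinb2 (adjusted p = 0.0559). LPS changed each of them less in oxLDL-loaded cells. Without a block, and with a single block for the number, none of the 5 was called. The blocked test called 147 of 13482 genes (1.09%), and it called 0 of the 9 genes without number 1 and 0 without number 3. Over all genes it also called 0 of 13148 and 0 of 13214 in these fits.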

How the results depend on the processing

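The LPS calls of F3, F10, Thbd, Procr, Plaur and Serpinb2 kept their direction and stayed under the threshold in both LPS comparisons under all alternatives run for single genes, and so did that of Plau without oxLDL. The replicate block moved the counts of calls in both oxLDL comparisons. For oxLDL against control it called 601 genes, and 214, 139 and 1285 without number 1, 2 and 3, with 2 of the 9 genes in each, and 1 other listed gene, or 2 without number 3. For oxLDL+LPS against LPS it called 1682 genes, and 71, 2945 and 0 without number 1, 2 and 3. Of the 9 genes these were 5, and 2, 6 and 0, and of the other listed genes 3, and 0, 4 and 0. Leaving out 1 library at a time without the block gave 0 to 91 genes and 0 to 1 of the 9, the highest each time without oxLDL+LPS replicate 2. For the interaction the block within LPS state called 147 genes and 5 of the 9, 763 and 5 without number 2, and 0 of either without number 1 and without number 3, while leaving out 1 library without a block gave 0 to 6 genes. These blocked fits with a number left out keep 1 residual degree of freedom (2 for the interaction), so they lean on the spread of all genes. For oxLDL+LPS against oxLDL the count of other listed genes went from 7 to 14 with the block, to 11 in a joint fit of the 12 libraries, and to 12 after rescaling to equal totals and with the block without number 1 or 2. The count over all genes went from 7030 to 8185 with the block, 7558 in the joint fit and 8691 after rescaling. Rescaling to equal totals also turned F7 with LPS to -0.29 and, in oxLDL-loaded cells, to -0.20, Plau in oxLDL+LPS against LPS to 0.076, and the interaction of F7 to 0.090, which was 0.019 without number 1. Some differences that passed no test turned sign in an alternative, while others, such as F3 in oxLDL against control, kept it. The ranges that follow run over the main fit and all alternatives run for single genes, and not only over libraries left out. The log2 ranges for oxLDL against control were -0.28 to 0.069 for F7, -0.28 to 0.00090 for F10, -0.50 to 0.39 for F13a1, -0.084 to 0.026 for Thbd, -0.052 to 0.025 for Plaur and -0.44 to 0.54 for Serpinb2. For oxLDL+LPS against LPS they were -0.29 to 0.042 for F7, -0.31 to 0.35 for F13a1 and -0.41 to 0.26 for Plau. For the interaction they were -0.19 to 0.18 for F7, -0.46 to 0.13 for F10, -0.27 to 0.61 for F13a1 and -0.59 to 0.19 for Procr. The cause of these shifts was not tested.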
